A study of Mus musculus with 6 samples.

Results

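The Eph receptors and ephrins, the semaphorins with their plexin and neuropilin receptors, the netrins with their receptors, and the Slits with their Robo receptors are the classical guidance families of the embryo. Their members were taken by gene symbol alone: protein-coding genes named *Epha* or *Ephb* with a number, *Efna* or *Efnb* with a number, *Sema* with a number and a letter, *Plxn* with a letter, *Nrp1* and *Nrp2*, *Ntn* with a number, *Unc5a* to *Unc5d*, *Dcc*, *Neo1*, *Slit1* to *Slit3* and *Robo1* to *Robo4*. This gave 70 genes of the 35565 identifiers in the count table, namely 14 Eph receptors, 8 ephrins, 20 semaphorins, 11 plexins and neuropilins, 10 netrins and netrin receptors, and 7 Slits and Robos. Among them are 35 ligands and 35 receptors.

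Gastruloids are aggregates of mouse embryonic stem cells (mESCs) that, after a pulse of the GSK3 inhibitor CHIR99021, which activates WNT signalling, elongate and form derivatives of the germ layers. All gastruloids were made from the mESC line TBV2 129/SvP, received the same treatment and were collected at day 5. The 3 Control libraries come from cells whose genotype the labels give as WT and which the paper describes as carrying a non-targeting construct (NT), and the 3 KD-1 libraries from a single clone in which the ultraconserved long noncoding RNA *T-UCstem1* was knocked down. Each group therefore stands for a single line, and other differences between the lines cannot be told apart from the knockdown; the replicates are described as biological.

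Guidance ligands tell a cell where to go or where to stop. Ephrins are held on the cell surface and signal to Eph receptors on touching neighbours, often by repulsion, and in the trunk this pair of families is known for cutting somite boundaries and for keeping hindbrain segments apart. Secreted class 3 semaphorins bind neuropilins, which signal through plexins, and steer neural crest, vessels and axons. Netrin attracts axons through DCC and repels them through UNC5 receptors, and Slits repel cells that carry Robo receptors, as at the midline of the neural tube.

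Library totals ran from 20982249 to 56674906 counts in Control and from 41180012 to 85561026 counts in KD-1. Libraries are named by depth within their group, and values of 3 libraries are always given from the shallowest to the deepest. A level is the CPM value (counts scaled to a common library size) after TMM normalization, and 3 counts, the limit that a count of 0 allows, correspond to 0.143 CPM in the shallowest library and 0.0351 in the deepest. The middle Control library stood farthest from the others of its group, with a chi-square per degree of freedom of 36.3 and 36.5 against the other Control libraries, whereas the pair without it gave 15.3. The level of *T-UCstem1* was not analysed here, so these counts do not check the knockdown.

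A gene was called when edgeR's quasi-likelihood test gave an adjusted p under 0.05 over all genes tested and the fold change was over 1.5 in either direction. A log2 fold change is printed with its standard error (SE). This rule called 37.7% of the 15110 genes tested, with 19.7% above and 18.1% below Control. Against this background, 66 guidance genes could be tested, and the rule called 37 of them (56.1%), of which 14 (21.2%) rose and 23 (34.8%) fell. Their median log2 fold change was −0.30, and that of all genes tested was −0.01. By the adjusted p alone, 21 guidance genes were higher and 31 lower, and 63.5% of all genes passed. Every Control library lay on the same side of every KD-1 library for 55 of the 66 (83.3%), and for 70.6% of all genes tested. The largest rises were those of *Dcc*, *Robo3* and *Unc5c*, receptors of midline cues that lay below 1 CPM in every Control library. The largest falls were those of the netrin *Ntn5*, which had 3 counts in all of KD-1, the semaphorin *Sema3f* and *Nrp1*. The plot of log2 fold changes by class shows all 66.

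**Figure D1:**
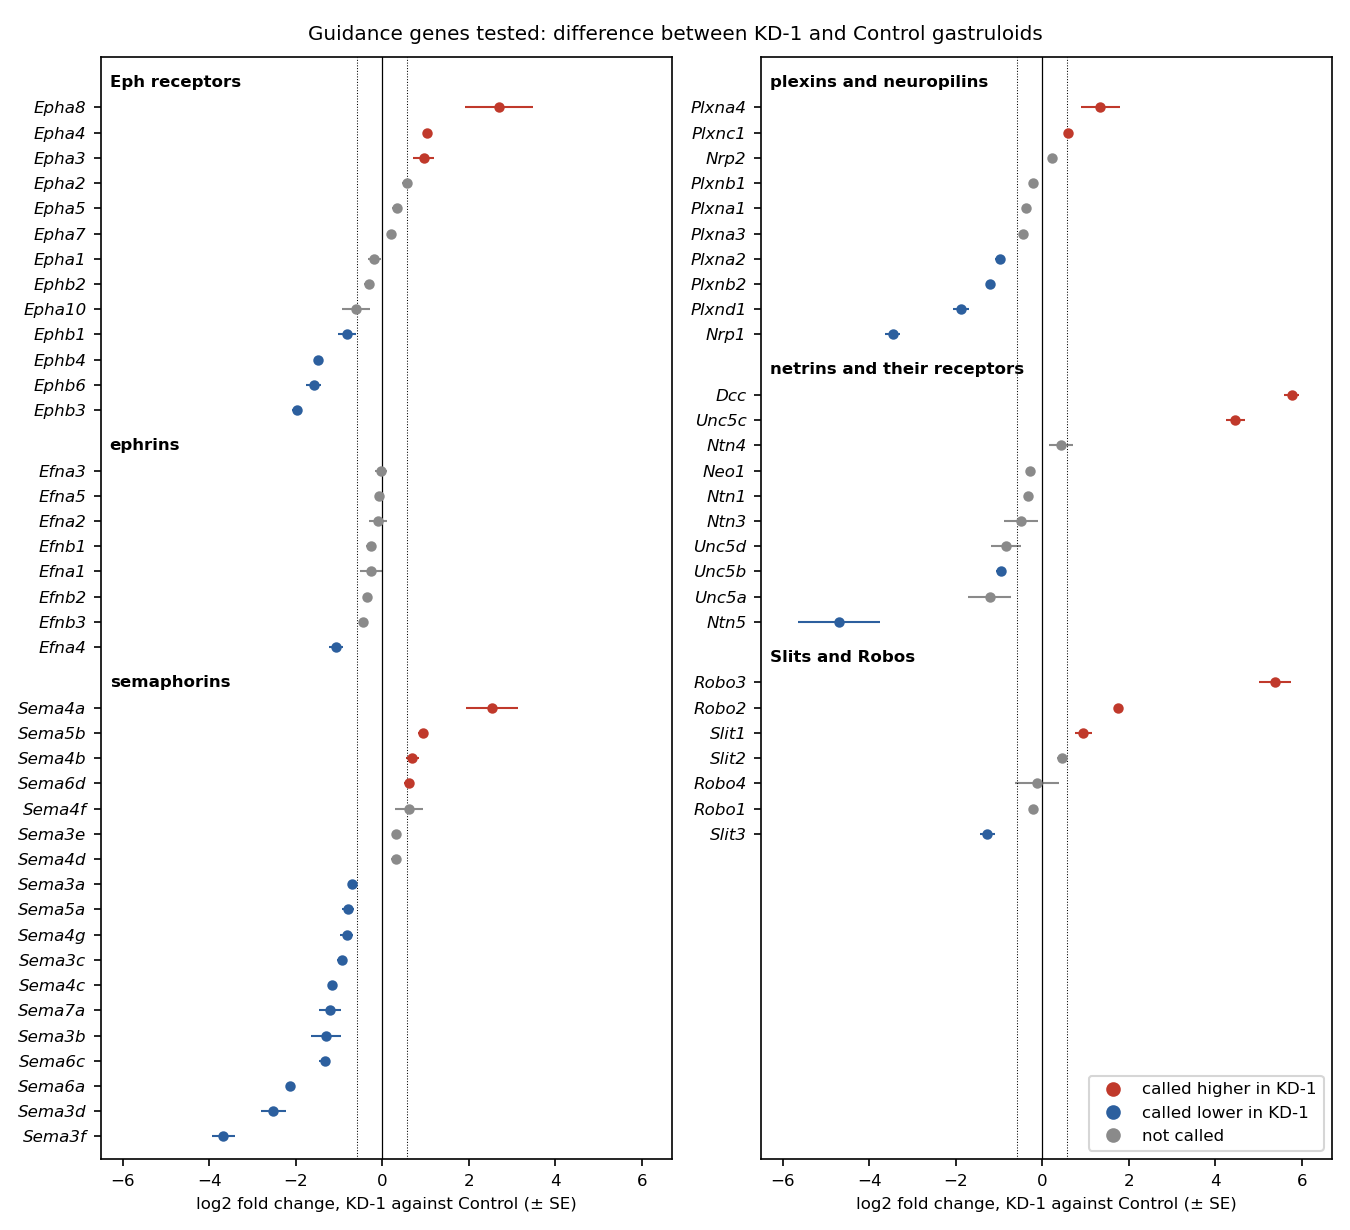
Log2 fold change of each of the 66 guidance genes tested, KD-1 against Control (n = 3 libraries each), with bars of 1 standard error and dotted lines at a 1.5-fold change in either direction. Points are coloured by call, and *Dcc* (5.77), *Robo3* (5.39) and *Unc5c* (4.47) stand on the right, whereas 11 of the 18 semaphorins stand on the left as called lower.

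The ligands and the receptors were called in different proportions by direction. Of 33 ligands tested, 5 rose (15.2%) and 14 fell (42.4%), with a median log2 fold change of −0.34. Semaphorins made up 4 of these rises and 11 of these falls, so the ligand counts mostly reflect that class. Of 33 receptors tested, 9 rose and 9 fell (27.3% each), with a median of −0.21. Of all genes tested, 19.7% rose and 18.1% fell. These are counts, and the difference between ligands and receptors was not tested. Since whole gastruloids were sequenced, fewer cells of a type and less RNA per cell cannot be told apart in any of these values. The other 4 members could not be tested for want of counts, and they are given below with their families.

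Netrin receptors held the largest rise of the 66 genes. *Dcc* (ENSMUSG00000060534, GRCm39 chromosome 18, 71386705 to 72484179, minus strand), the receptor through which netrin attracts commissural axons, had 0.965, 0.385 and 0.614 CPM in Control and 32.8, 34.3 and 33.6 CPM in KD-1. The lowest KD-1 library was thus far above the highest Control library. Its mean level rose 51.3-fold, and the log2 fold change was 5.77 ± 0.18 (SE, adjusted p = 6.7e-08). *Unc5c* (ENSMUSG00000059921, chromosome 3, 141170977 to 141540685, plus strand), a repulsive netrin receptor, had 0.723, 0.326 and 0.451 CPM in Control and 10.7, 9.63 and 11.1 CPM in KD-1. It rose 20.9-fold, with log2 fold change 4.47 ± 0.22 (SE, adjusted p = 6.5e-07). For both genes the middle Control library was the lowest of all 6.

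*Unc5b*, the family member best known from vessels, moved the other way. It had 14.6, 16.6 and 16.9 CPM in Control and 9.11, 8.44 and 7.44 CPM in KD-1, and it fell with log2 fold change −0.95 ± 0.11 (SE, adjusted p = 8.5e-05). *Unc5a* (log2 fold change −1.22, adjusted p = 0.059) and *Unc5d* (−0.84, adjusted p = 0.056) did not pass the test, although *Unc5a* was called lower without the shallowest Control library (−1.51, adjusted p = 0.024). *Unc5d* was called lower with at least 10 counts in every library (adjusted p = 0.041), by limma-voom (0.04), without the middle Control library (0.041) and without the deepest KD-1 library (0.047). *Unc5a* shares exon sequence with *Hk3*, and whether strand was used in counting is not stated, so reads of such overlapping pairs cannot be told apart.

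The ligand itself was abundant in both groups. *Ntn1* (ENSMUSG00000020902, chromosome 11, 68100190 to 68291662, minus strand), the main secreted netrin, had 156, 152 and 167 CPM in Control and 124, 124 and 130 CPM in KD-1. The groups did not overlap, but the log2 fold change of −0.33 ± 0.06 (SE, adjusted p = 0.0011) was within the fold threshold. Per kb of exon it had the highest level of the 70 genes, 24.1 CPM per kb in Control and 19.2 in KD-1. With the longest transcript as the length it stayed highest in Control, but *Epha4* and *Nrp2* stood above it in KD-1. Per kb of exon it made up 96.5% ± 1.4 (SD, n = 3) of the summed netrin level in Control and 96.1% ± 0.69 (SD, n = 3) in KD-1. *Neo1* (ENSMUSG00000032340, chromosome 9, 58781965 to 58944238, minus strand) encodes neogenin, the relative of DCC, and had 162, 131 and 159 CPM in Control and 120, 124 and 126 CPM in KD-1. Its log2 fold change was −0.29 ± 0.08 (SE, adjusted p = 0.014), also within the fold threshold. *Ntn3* (−0.49, adjusted p = 0.32) and *Ntn4* (0.44, adjusted p = 0.20) did not pass the test.

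*Ntn5*, a short netrin, was the remaining called netrin and rested on few reads. It had 0.434, 0.947 and 0.253 CPM in Control and 0.0239, 0.046 and 0 CPM in KD-1, a sum of 55 counts against 3. The ratio of these summed counts, corrected for depth, was 27.6 with an exact 95% interval of 8.96 to 138, which covers counting error only. The fitted log2 fold change was −4.69 ± 0.94 (SE, adjusted p = 0.0023). The exons of *Ntn5* overlap those of *Sec1* on the opposite strand. *Sec1* fell from 2.91 to 0.637 CPM (log2 fold change −2.22, adjusted p = 0.00014), and its part in the *Ntn5* value was not tested. The fitted value of *Ntn5* was −3.98 without the middle Control library, −5.64 without the middle KD-1 library and −3.81 without the deepest KD-1 library.

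Set side by side per kb of exon, the netrin receptors summed to 15.9 ± 1.3 CPM per kb (SD, n = 3) in Control and 15.2 ± 0.20 (SD, n = 3) in KD-1. The composition of that sum differed. *Dcc* took 0.307% ± 0.12 of it in Control and 16.7% ± 0.26 in KD-1, and *Unc5c* took 0.163% ± 0.058 and 3.60% ± 0.26 (SD, n = 3 for each). *Neo1* remained the largest component, with 81.9% ± 2.7 in Control and 70.2% ± 0.88 in KD-1, and *Unc5b* held 16.1% ± 2.2 and 8.73% ± 0.99. Shares like these are descriptions, since an exact permutation test of 3 libraries against 3 cannot go below a two-sided p of 0.1.

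A pair of Robo receptors rose together with *Slit1*. *Robo3* (ENSMUSG00000032128, chromosome 9, 37326965 to 37344737, minus strand), the divergent Robo of commissural neurons that allows axons to cross the midline, had 0.289, 0.0296 and 0.451 CPM in Control and 12.4, 12.3 and 11.5 CPM in KD-1. The middle Control value is a single count. Its log2 fold change was 5.39 ± 0.37 (SE, adjusted p = 4.8e-06), and it was 6.5 without the deepest Control library and 4.88 without the middle one. Summed over libraries, 32 counts in Control stood against 2047 in KD-1, a depth-corrected ratio of 42.5 with an exact 95% interval of 30.0 to 62.3 for counting error. *Robo2* (ENSMUSG00000052516, chromosome 16, 73688727 to 75244270, minus strand), a receptor for repulsion by Slits, had 5.16, 5.24 and 4.55 CPM in Control and 15.7, 16.5 and 18.1 CPM in KD-1. It rose 3.36-fold (log2 fold change 1.76, SE 0.11, adjusted p = 2.2e-06), with no overlap between groups.

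*Robo1* is the Robo with the highest level per kb of exon in both groups. It had 47.8, 35.6 and 44.4 CPM in Control and 37.9, 36.0 and 36.9 CPM in KD-1, values that overlap, and its log2 fold change of −0.21 ± 0.10 (SE, adjusted p = 0.11) did not pass the test. Nor did *Robo4*, an endothelial member (−0.12, adjusted p = 0.86). Per kb of exon, the Robos summed to 2.70 ± 0.29 CPM per kb in Control and 4.46 ± 0.038 in KD-1 (SD, n = 3). *Robo1* held 86.6% ± 3.8 of this sum in Control and 45.6% ± 1.1 in KD-1, and *Robo3* held 1.23% ± 1.0 and 36.3% ± 1.2. With the longest transcript as the length, the sums were 5.33 and 8.001 CPM per kb and the *Robo3* share was 0.779% in Control and 25.4% in KD-1.

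The 3 Slits, the secreted ligands of Robo receptors, went separate ways. *Slit1* (ENSMUSG00000025020, chromosome 19, 41588676 to 41732268, minus strand) had 4.24, 8.11 and 6.17 CPM in Control and 11.2, 12.3 and 12.8 CPM in KD-1, and rose by a log2 fold change of 0.95 ± 0.19 (SE, adjusted p = 0.0024). *Slit3* had 7.19, 4.94 and 7.11 CPM in Control and 2.55, 2.87 and 2.58 CPM in KD-1, and fell with log2 fold change −1.26 ± 0.18 (SE, adjusted p = 0.00028). In neither gene did the groups overlap. *Slit2*, with 21.3 ± 2.9 CPM in Control and 29.0 ± 1.3 in KD-1 (SD, n = 3), had a log2 fold change of 0.45 ± 0.10 (SE, adjusted p = 0.0044) within the fold threshold. *Slit1* made up 37.1% ± 11 of the summed Slit level per kb in Control and 54.8% ± 0.71 in KD-1, and *Slit3* 26.8% ± 5.6 and 8.39% ± 0.57 (SD, n = 3). The *Slit2* share, 36.0% ± 5.6 and 36.8% ± 0.65, became 54.8% and 55.6% with the longest transcript as the length.

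**Figure D2:**
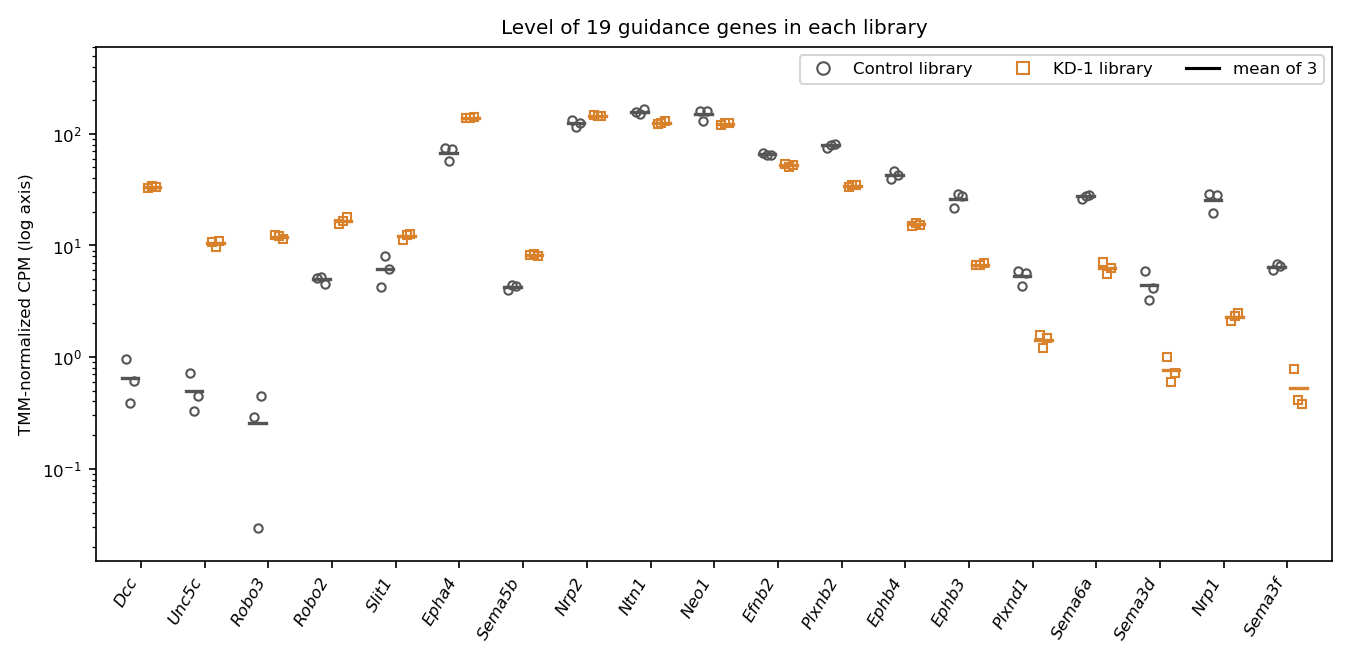
Level of 19 guidance genes in each of the 6 libraries, in TMM-normalized CPM on a log axis, with circles for Control, squares for KD-1 and a line at the mean of each 3. *Dcc*, *Unc5c* and *Robo3* lie below 1 CPM in every Control library and above 9 CPM in every KD-1 library, whereas *Nrp2*, *Ntn1*, *Neo1* and *Efnb2* stay within the 1.5-fold threshold.

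The plot of levels by library sets these receptors beside the members described next.

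Eph receptors were also counted by subclass. Of the 8 EphA receptors tested, 3 rose and none fell, with a median log2 fold change of 0.47. The called share of 37.5% was close to the 37.7% of all genes tested, of which 19.7% rose. Of the 5 EphB receptors, none rose and 4 fell (80%), with a median of −1.48, and 18.1% of all genes tested fell. EphA receptors mostly bind the lipid-anchored ephrin-A ligands and EphB receptors the transmembrane ephrin-B ligands, with *Epha4* known to bind both kinds. The difference between the subclasses was not tested.

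The start regions of an EphA pair that rose and of an EphB receptor that fell are printed here as examples. They do not stand for the genes called in each direction. These are the RefSeq windows (GRCm38.p6) from 250 to 11 bases before the annotated start, read on the gene's strand, minus for each, with CG dinucleotides in capitals. They lie at chr1:77515099-77515338 (*Epha4*), chr16:63864186-63864425 (*Epha3*) and chr9:102354704-102354943 (*Ephb1*).
Epha4: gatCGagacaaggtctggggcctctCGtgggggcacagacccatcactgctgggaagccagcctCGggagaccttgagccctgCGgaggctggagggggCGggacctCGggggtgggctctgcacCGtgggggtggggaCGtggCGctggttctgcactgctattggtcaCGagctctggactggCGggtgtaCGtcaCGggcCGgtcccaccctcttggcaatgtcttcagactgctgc
Epha3: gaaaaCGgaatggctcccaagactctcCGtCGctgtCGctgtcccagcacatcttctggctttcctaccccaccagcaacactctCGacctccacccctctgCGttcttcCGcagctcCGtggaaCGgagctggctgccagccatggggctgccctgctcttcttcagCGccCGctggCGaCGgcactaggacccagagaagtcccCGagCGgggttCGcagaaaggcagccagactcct
Ephb1: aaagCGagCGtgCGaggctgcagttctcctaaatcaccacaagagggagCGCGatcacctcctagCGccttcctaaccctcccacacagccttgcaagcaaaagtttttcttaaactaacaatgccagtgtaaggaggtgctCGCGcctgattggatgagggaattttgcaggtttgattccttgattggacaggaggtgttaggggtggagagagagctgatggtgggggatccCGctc
*Epha4* has 14 CG dinucleotides and a GC content of 67.1%, *Epha3* has 16 and 63.3%, and *Ephb1* has 9 and 52.9%. Over all 32841 windows of the RefSeq table, cut to the same 240 bases, the median is 5 CG dinucleotides and a GC content of 52.1%. The 76 windows of the 60 guidance genes found there have a median of 15 and 64.6%. By call, the medians are 13 and 63.5% in the 18 windows of genes called higher, 15 and 65% in the 23 of genes called lower, and 18 and 66.2% in the 30 of genes not called, so the order of the printed examples is not that of the called genes. GGGCGG, the GC box, occurs on either strand in 69.7% of the guidance windows and 31.3% of all windows, and CAGCTG, an E-box, in 15.8% and 12.4%. CTTTGA, the core of the TCF/LEF motif through which WNT signalling acts, occurs in 5.26% of the guidance windows and 13.5% of all windows. None of the 18 windows of genes called higher and none of the 23 of genes called lower holds CTTTGA, and 4 of the 30 windows of genes not called do (13.3%). These are letter matches in a short window and say nothing of binding.

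Among the EphA receptors, *Epha4* carried most of the difference in level. *Epha4* (ENSMUSG00000026235, chromosome 1, 77343822 to 77492816, minus strand), which takes part in somite boundaries and hindbrain segments, had 74.7, 56.8 and 72.7 CPM in Control and 138, 140 and 141 CPM in KD-1. It rose 2.05-fold, with log2 fold change 1.04 ± 0.10 (SE, adjusted p = 3e-05) with no overlap between groups. *Epha3* had 4.49, 2.13 and 2.89 CPM in Control and 5.06, 6.14 and 6.78 CPM in KD-1. Its log2 fold change was 0.96 ± 0.25 (SE, adjusted p = 0.0086), although the highest Control and lowest KD-1 libraries lay close together. *Epha8* had 0, 0 and 0.108 CPM in Control and 0.382, 0.368 and 0.311 CPM in KD-1, or 6 counts against 59. The depth-corrected ratio of those sums was 6.53, with an exact 95% interval of 2.83 to 18.5 for counting error, and the fitted log2 fold change was 2.71 ± 0.79 (SE, adjusted p = 0.015). That fitted value was 7.0 without the deepest Control library, the only Control library with reads of the gene.

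*Epha2*, a receptor of epithelia and of pluripotent cells, stood at the edge of the fold threshold. It had 13.6, 17.97 and 19.2 CPM in Control and 25.1, 25.8 and 25.9 CPM in KD-1, or a log2 fold change of 0.58 ± 0.12 (SE, adjusted p = 0.0021), and it was called higher under 10 of the alternative settings. *Epha7* (46.5 ± 4.1 CPM in Control, 53.7 ± 0.34 in KD-1) and *Epha5* (4.87 ± 0.28 and 6.19 ± 0.085) differed by 0.21 and 0.35 on the log2 scale (adjusted p = 0.036 and 0.026). Both passed the adjusted p and were within the fold threshold. *Epha1* (−0.18, adjusted p = 0.30) and *Epha10* (−0.60, adjusted p = 0.14) did not pass, and *Epha10* was called lower without the middle Control library (−0.83, adjusted p = 0.025). *Epha6* was not tested, having 0, 0 and 6 counts in Control and 6, 2 and 4 in KD-1.

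Among the EphB receptors that fell, *Ephb3* and *Ephb4* had little scatter among KD-1 libraries. *Ephb3* (ENSMUSG00000005958, chromosome 16, 21023495 to 21042057, plus strand) had 21.8, 28.8 and 28.0 CPM in Control and 6.63, 6.64 and 6.94 CPM in KD-1. It fell by 1.96 on the log2 scale (SE 0.12, adjusted p = 1.9e-06). *Ephb4* (ENSMUSG00000029710, chromosome 5, 137348274 to 137376931, plus strand), the venous receptor for ephrin-B2, had 39.5, 46.9 and 42.5 CPM in Control and 15.03, 15.8 and 15.4 CPM in KD-1. It fell by 1.48 (SE 0.08, adjusted p = 1.2e-06), and it is one of the EphB genes with a neighbour in its exons, *Zan*, which rose from 2.54 to 5.07 CPM. *Ephb6*, a receptor without kinase activity whose exons overlap those of *Trpv6* (0.292 CPM in Control and 0.0153 in KD-1), had 6.75, 9.89 and 8.74 CPM in Control and 3.34, 2.71 and 2.52 CPM in KD-1.

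*Ephb6* fell by 1.58 on the log2 scale (SE 0.18, adjusted p = 8.4e-05), and the groups did not overlap in any of these 3 genes. *Ephb1* had 6.61, 3.94 and 5.61 CPM in Control and 3.17, 2.53 and 3.36 CPM in KD-1. Its fall of 0.82 (SE 0.21, adjusted p = 0.0082) was the smallest of the 4. *Ephb2*, with 23.6, 20.04 and 25.9 CPM in Control and 18.1, 19.5 and 18.5 CPM in KD-1, had a log2 fold change of −0.31 ± 0.10 (SE, adjusted p = 0.024), within the fold threshold.

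The total Eph receptor level hardly differed while its make-up did. Per kb of exon, Eph receptors summed to 33.8 ± 1.3 CPM per kb in Control and 35.4 ± 0.39 in KD-1 (SD, n = 3). EphA receptors made up 17.8 ± 1.3 and 29.1 ± 0.35 of these, and EphB receptors 16.0 ± 1.2 and 6.33 ± 0.049. The EphB share was 47.4% ± 3.1 in Control and 17.9% ± 0.11 in KD-1, and the *Epha4* share 24.4% ± 3.5 and 47.8% ± 0.083. In Control the highest levels were those of *Ephb4* (8.55 CPM per kb) and *Epha4* (8.26), which do not differ beyond their spread, and in KD-1 *Epha4* (16.9) stood well above *Ephb4* (3.07).

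Among the 8 ephrins, the ligands of Eph receptors, *Efna4* was called and the others were not. *Efna4* (ENSMUSG00000028040, chromosome 3, 89240695 to 89245373, minus strand), a lipid-anchored ligand, had 11.0, 15.8 and 16.8 CPM in Control and 7.42, 6.57 and 7.0 CPM in KD-1. It fell by 1.07 on the log2 scale (SE 0.15, adjusted p = 0.00034), and the groups did not overlap. *Efnb2* (ENSMUSG00000001300, chromosome 8, 8667226 to 8711249, minus strand), the transmembrane ligand known from arteries and the posterior part of somites, had 68.0, 65.0 and 65.2 CPM in Control and 53.7, 50.2 and 52.5 CPM in KD-1. Its groups did not overlap either, but the log2 fold change of −0.34 ± 0.06 (SE, adjusted p = 0.0009) was within the fold threshold, as was that of *Efnb3* (−0.45, SE 0.06, adjusted p = 0.00034).

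The remaining ephrins did not pass the adjusted p. *Efna1* and *Efnb1* each stood at −0.25 on the log2 scale (adjusted p = 0.43 and 0.087), *Efna2* at −0.09 (adjusted p = 0.73), *Efna5* at −0.07 (adjusted p = 0.43) and *Efna3* at −0.03 (adjusted p = 0.88). Every ephrin thus had a value below 0, most of them small. Summed per kb of exon, ephrins had 38.8 ± 2.8 CPM per kb in Control and 29.0 ± 1.1 in KD-1 (SD, n = 3). *Efnb2* was the highest in both, with 9.12 and 7.20 CPM per kb, next to *Efna4* in Control (8.87).

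**Figure D3:**
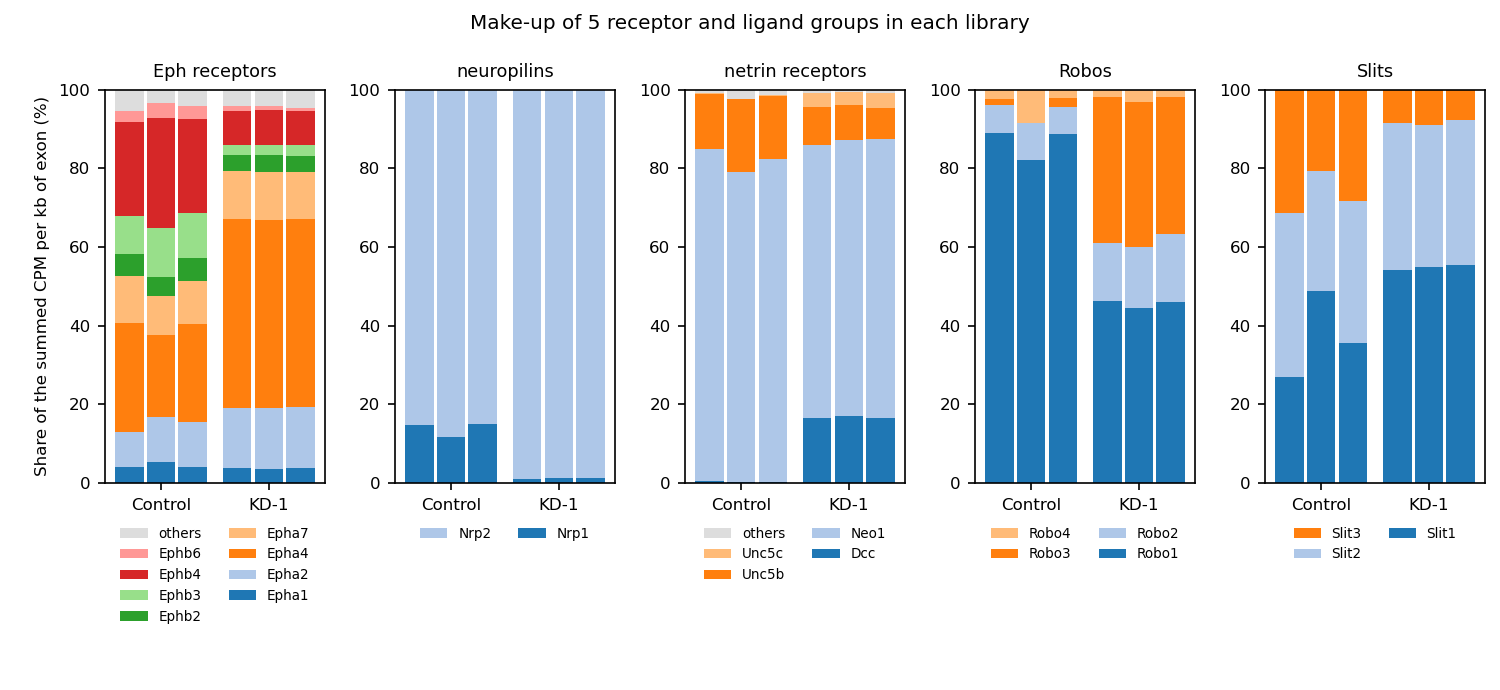
Make-up of 5 groups of receptors or ligands in each library, as the share of the summed level per kb of exon in percent; within each panel the left 3 bars are Control and the right 3 are KD-1, each from the shallowest to the deepest library. The EphB receptors together shrink from 47.4% to 17.9%, *Nrp1* from 13.8% to 1.24% and *Robo1* from 86.6% to 45.6%, and *Dcc* takes 16.7% of the netrin receptors in KD-1.

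Semaphorins, the largest class, had the largest number of calls, 15 of the 18 tested (83.3%), with 4 higher and 11 lower. Their median log2 fold change was −0.81. Control and KD-1 did not overlap in any of the 18, nor in any of the 10 plexins and neuropilins tested. For comparison, 37.7% of all genes tested were called and 70.6% had no overlap. The class 3 semaphorins, which are secreted, accounted for 5 of the falls and no rise among 6 tested. *Sema3f* (ENSMUSG00000034684, chromosome 9, 107558698 to 107587674, minus strand), a repellent read through neuropilin-2, had 6.03, 6.84 and 6.53 CPM in Control and 0.787, 0.414 and 0.380 CPM in KD-1. It fell by 3.67 on the log2 scale, or 12.3-fold (SE 0.26, adjusted p = 5.9e-06). *Sema3d* had 5.93, 3.23 and 4.19 CPM in Control and 1.00, 0.598 and 0.714 CPM in KD-1, a fall of 2.52 (SE 0.29, adjusted p = 9.2e-05).

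*Sema3b* (−1.30, adjusted p = 0.011), *Sema3c* (−0.94, adjusted p = 5.4e-05) and *Sema3a* (−0.70, adjusted p = 5e-05), the ligand first known for collapsing growth cones, fell as well. *Sema3b* had 0.820, 0.888 and 0.632 CPM in Control and 0.382, 0.276 and 0.288 CPM in KD-1, with an SE of 0.35. It did not pass the test without the middle KD-1 library (−1.21, adjusted p = 0.06) or the deepest (−1.22, adjusted p = 0.068). *Sema3e*, which is read by plexin D1 without a neuropilin, had 14.5 ± 0.90 CPM in Control and 18.2 ± 1.4 in KD-1 (SD, n = 3), or a log2 fold change of 0.32 (adjusted p = 0.012) within the fold threshold. Its share of the summed class 3 level per kb was 13.3% ± 0.15 in Control and 29.1% ± 1.6 in KD-1, while the sum itself was 9.11 ± 0.64 and 5.20 ± 0.16 CPM per kb (14.8 and 8.82 with the longest transcript as the length). *Sema3g* was not tested, with 3, 6 and 1 counts in Control and 9, 13 and 5 in KD-1.

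The membrane-bound classes were mixed. *Sema6a* (ENSMUSG00000019647, chromosome 18, 47368665 to 47502216, minus strand), a transmembrane ligand of A-type plexins, had 26.3, 27.5 and 28.5 CPM in Control and 7.18, 5.59 and 6.23 CPM in KD-1. It fell by 2.12 on the log2 scale (SE 0.10, adjusted p = 6.3e-07). *Sema6c* had 11.8, 10.2 and 10.9 CPM in Control and 4.604, 4.71 and 3.80 CPM in KD-1, a fall of 1.33 (SE 0.13, adjusted p = 3.1e-05). *Sema6d* of the same class rose, from 6.27, 5.18 and 6.696 CPM to 8.92, 9.63 and 9.41 CPM (log2 fold change 0.62, SE 0.12, adjusted p = 0.0021), and without the middle Control library its value of 0.51 was within the fold threshold. *Sema6b*, with 2, 8 and 13 counts in Control and 17, 16 and 20 in KD-1, was not tested.

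*Sema4c* (ENSMUSG00000026121, chromosome 1, 36587720 to 36597963, minus strand), a ligand of plexin B2, had the highest level per kb among semaphorins in both groups, 8.89 CPM per kb in Control and 4.01 in KD-1. It had 53.9, 61.5 and 57.8 CPM in Control and 25.9, 25.9 and 26.4 CPM in KD-1, a fall of 1.15 on the log2 scale (SE 0.07, adjusted p = 2.2e-06). Further falls were those of *Sema7a* (−1.21, adjusted p = 0.0024), the lipid-anchored member, *Sema4g* (−0.82, adjusted p = 0.0018) and *Sema5a* (−0.79, adjusted p = 0.001). *Sema4g* overlaps *Mrpl43*, which was not called.

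The semaphorins that rose were few. *Sema5b* (ENSMUSG00000052133, chromosome 16, 35360820 to 35485102, plus strand), a transmembrane member with thrombospondin repeats, had 3.95, 4.41 and 4.35 CPM in Control and 8.16, 8.39 and 8.04 CPM in KD-1, or a log2 fold change of 0.94 ± 0.11 (SE, adjusted p = 0.00011). *Sema4b* had 10.1, 15.5 and 10.6 CPM in Control and 19.2, 19.6 and 20.1 CPM in KD-1 (log2 fold change 0.70, SE 0.15, adjusted p = 0.0033). *Sema4a*, best known from immune cells and the retina, rested on 7 counts in Control and 65 in KD-1. It had 0.0482, 0.118 and 0.0361 CPM in Control and 0.525, 0.345 and 0.322 CPM in KD-1, and the depth-corrected ratio of the summed counts was 6.17 with an exact 95% interval of 2.83 to 15.95 for counting error. Its fitted log2 fold change was 2.54 ± 0.60 (SE, adjusted p = 0.0054) and ran from 2.08 to 3.21 when a library was left out, lowest without the deepest Control library and highest without the middle one. *Sema4d* (0.31, adjusted p = 0.031) and *Sema4f* (0.62, adjusted p = 0.13) were not called, and *Sema4f* was called higher without the middle Control library (0.84, adjusted p = 0.021). Per kb of exon, all semaphorins summed to 28.3 ± 0.56 CPM per kb in Control and 17.8 ± 0.15 in KD-1 (SD, n = 3).

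The receptors of class 3 semaphorins were split. *Nrp1* (ENSMUSG00000025810, chromosome 8, 129085085 to 129231082, plus strand), the neuropilin that binds semaphorin 3A and VEGF, had 29.1, 19.4 and 28.3 CPM in Control and 2.10, 2.34 and 2.48 CPM in KD-1. It fell 11.1-fold, by 3.46 on the log2 scale (SE 0.17, adjusted p = 8e-07). *Nrp2* (ENSMUSG00000025969, chromosome 1, 62742444 to 62857854, plus strand), which binds semaphorins 3C and 3F, had 133, 116 and 126 CPM in Control and 147, 144 and 145 CPM in KD-1. Its log2 fold change was 0.22 ± 0.06 (SE, adjusted p = 0.014), within the fold threshold and with no overlap between groups. *Nrp2* had the highest level per kb of the plexins and neuropilins, 10.4 CPM per kb in Control and 12.1 in KD-1. The pair together summed to 12.1 ± 1.0 CPM per kb in Control and 12.2 ± 0.13 in KD-1, and the *Nrp1* share was 13.8% ± 1.9 and 1.24% ± 0.11 (SD, n = 3). With the longest transcript as the length, the sums were 22.9 and 21.3 CPM per kb and the *Nrp1* share 21.4% and 2.08%.

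Of the 8 plexins tested, the signalling receptors, 3 fell (37.5%) and 2 rose (25%), beside 18.1% and 19.7% of all genes tested. *Plxnd1*, the plexin of endothelium, had 5.88, 4.32 and 5.67 CPM in Control and 1.57, 1.22 and 1.497 CPM in KD-1, a fall of 1.88 on the log2 scale (SE 0.19, adjusted p = 4.1e-05). *Plxnb2* (ENSMUSG00000036606, chromosome 15, 89039749 to 89065211, minus strand) had 75.2, 80.0 and 81.7 CPM in Control and 33.3, 35.1 and 34.9 CPM in KD-1, a fall of 1.20 (SE 0.06, adjusted p = 9e-07). *Plxna2*, a receptor for class 3 and class 6 semaphorins, had 134, 94.5 and 125 CPM in Control and 58.9, 60.5 and 59.1 CPM in KD-1, a fall of 0.98 (SE 0.12, adjusted p = 0.00011). In each of these the lowest Control library lay above the highest KD-1 library.

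*Plxnc1*, the receptor of semaphorin 7A, rose from 5.69, 5.42 and 6.05 CPM to 8.73, 8.83 and 8.62 CPM (log2 fold change 0.61, SE 0.10, adjusted p = 0.00093), and at 0.56 it was within the fold threshold without the middle Control library. *Plxna4*, a plexin of axons, had 0.579, 0.148 and 0.668 CPM in Control and 1.12, 1.15 and 1.31 CPM in KD-1. Its log2 fold change of 1.34 ± 0.45 (SE, adjusted p = 0.027) lost the call without any of the KD-1 libraries in turn, with adjusted p from 0.065 to 0.096, and it was 0.91 without the middle Control library and 1.85 without the deepest. *Plxna3* (−0.44, adjusted p = 0.0068), *Plxna1* (−0.37, adjusted p = 0.00034) and *Plxnb1* (−0.21, adjusted p = 0.033) passed the adjusted p within the fold threshold, and *Plxnb3* had no count in any library. Per kb of exon, plexins summed to 31.1 ± 2.1 CPM per kb in Control and 19.7 ± 0.37 in KD-1 (SD, n = 3).

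Ligands and receptors known to pair can be read across. *Sema4c* and its receptor gene *Plxnb2* both fell, to 0.451 and 0.435 of their Control mean. *Sema3f* fell to 0.0815 of its Control mean, whereas *Nrp2* was not called. For *Sema3a*, at 0.618 of its Control mean, the receptor gene *Nrp1* stood at 0.0900. *Sema7a* stood at 0.436 of its Control mean and its receptor gene *Plxnc1* at 1.53. *Ephb4* fell to 0.359 while *Efnb2* was not called. *Ntn1* was not called, while its receptor genes went up (*Dcc*, *Unc5c*), went down (*Unc5b*) or were not called (*Neo1*).

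**Figure D4:**
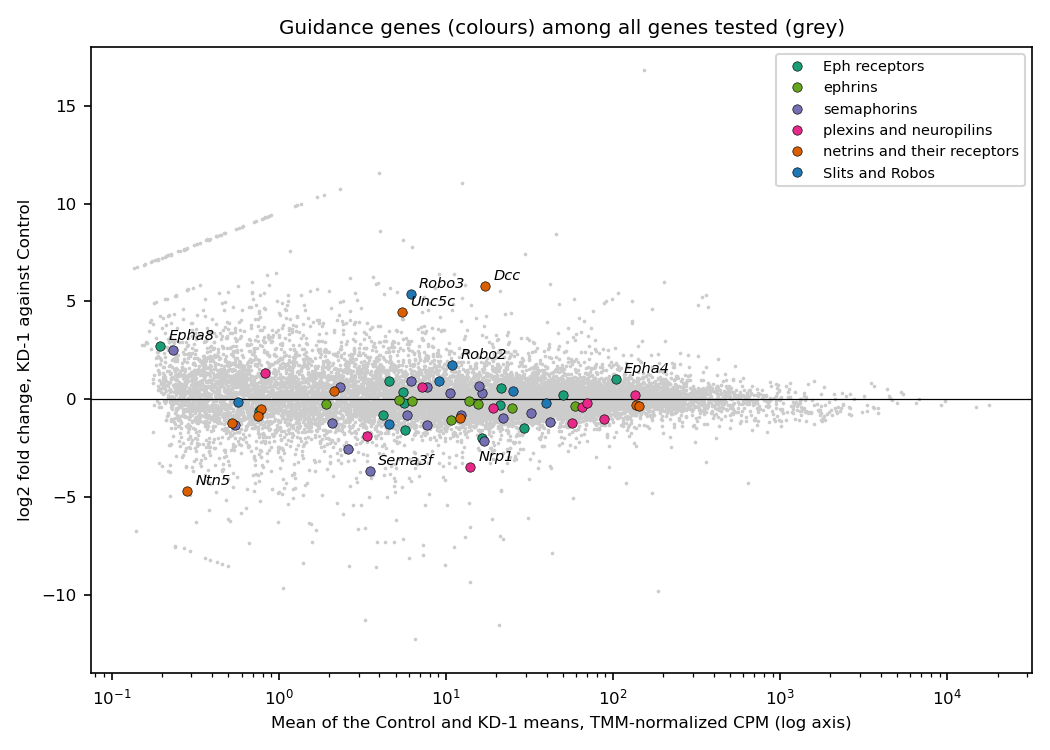
Log2 fold change of KD-1 against Control over the mean level (mean of the group means, TMM-normalized CPM on a log axis) for the 15110 genes tested, in grey, with the 66 guidance genes coloured by class. Guidance genes with the highest levels, such as *Ntn1* (−0.33) and *Nrp2* (0.22), sit near 0, and those with the largest values, such as *Dcc* (5.77) and *Ntn5* (−4.69), have lower levels, inside the spread of the grey points.

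The 4 members on chromosome 1 share it with a wide shift: 40.2% of 871 genes tested were called higher, 7.81% were called lower and the median log2 fold change was 0.49. Of the 4, *Epha4* was called higher, *Plxna2* and *Sema4c* were called lower, and *Nrp2* was not called. The part of that shift in the values of *Epha4* and *Nrp2* was not tested. Without the members on chromosome 1, 13 guidance genes were called higher and 21 lower.

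Genes that work with these families outside the symbol rule moved in both directions. Of 60 such genes, 58 were tested, 15 rose and 13 fell, with a median log2 fold change of −0.22. Of all genes tested, 19.7% rose and 18.1% fell, with a median of −0.01, and the counts below are to be read beside these shares. Among 34 intracellular effectors tested, which link guidance receptors to the cytoskeleton, 9 rose and 5 fell. The largest rises were those of *Srgap3*, an effector of the Slit-Robo pathway, from 10.7 ± 3.0 to 109 ± 3.1 CPM (log2 fold change 3.33), and *Ngef*, the exchange factor ephexin of EphA signalling, from 0.233 ± 0.18 to 1.40 ± 0.10 CPM (2.51). The largest falls were those of *Farp1*, from 79.8 ± 6.3 to 15.8 ± 0.94 CPM (−2.34), and *Sh3bp1*, from 15.6 ± 3.7 to 3.99 ± 0.36 CPM (−1.98).

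Among 20 co-receptors, other ligands and proteases, 5 rose and 6 fell. Those that rose include the cell adhesion molecules *Chl1*, from 1.43 ± 0.30 to 23.3 ± 0.62 CPM (log2 fold change 4.0), and *L1cam*, from 0.268 ± 0.16 to 1.04 ± 0.24 CPM (1.91). *Flrt2*, a ligand of Unc5 receptors, fell from 22.2 ± 3.3 to 2.87 ± 0.48 CPM (−2.93), and *Met*, a partner of B-type plexins, from 20.1 ± 2.3 to 5.94 ± 0.70 CPM (−1.76). The remaining list holds 5 genes, of which the netrin-G genes are *Ntng1*, not tested, and *Ntng2*, not called (0.63, adjusted p = 0.29). Its other members are not netrins: the plexin domain genes *Plxdc1*, which rose (2.50), and *Plxdc2*, which fell (−0.61), and the scaffold gene *Sh3rf1*, which fell (−1.09).

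Markers of the cell types that gastruloids can hold also differed between the groups, and some lists were mixed in direction. Of 9 neural markers tested, 6 rose and none fell, and the summed level of the 10 listed ran from 49.6 to 58.8 CPM in Control and from 194 to 197 CPM in KD-1. *Dcx*, a protein of migrating young neurons, had 0.470 ± 0.44 CPM in Control and 25.6 ± 1.3 in KD-1, and *Elavl3*, an RNA-binding protein of neurons, 1.02 ± 0.30 and 17.5 ± 0.16 (SD, n = 3). *Dcc*, *Unc5c* and *Robo3*, which neurons are known to express, rose beside them. All 10 somite, sclerotome and dermomyotome markers fell, with a summed level of 601 to 662 CPM in Control and 46.1 to 46.8 in KD-1, of which *Meox1* was the largest component in Control (371 CPM, and 0.423 in KD-1), and 5 of 7 presomitic and paraxial markers fell, with 51.7 to 63.4 and 40.6 to 42.1 CPM. These stand beside the falls of *Ephb3*, *Ephb4*, *Sema3d* and *Nrp1*.

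Of the 10 pluripotency markers, 9 rose and none fell, with 857 to 939 CPM in Control and 2731 to 2829 in KD-1. Endothelial markers, which bear on *Nrp1*, *Plxnd1*, *Ephb4* and *Robo4*, rose for 3 and fell for 1 of 4 tested, with sums of 17.9 to 18.6 and 33.8 to 35.8 CPM. *Pecam1* made up most of those sums. *Tek* (0.719 CPM in Control and 3.53 in KD-1) and *Sox7* (0.123 and 0.588 CPM) rose as well, while *Kdr* fell (1.92 and 1.06 CPM). *Cdh5* and *Emcn*, with 0.318 and 0.215 CPM in Control and 0.0233 and 0 in KD-1, were too low to test, as were *Tie1* and *Erg*. Among 6 neural crest markers tested, 3 rose and 2 fell, with sums of 118 to 129 and 34.0 to 37.0 CPM. *Ets1* carried the lower sum (112 CPM in Control and 3.36 in KD-1), and *Snai2* also fell, from 2.90 to 0.708 CPM. *Tfap2b* rose from 0.209 to 18.1 CPM, *Tfap2a* from 0.703 to 5.74 CPM and *Foxd3* from 0.178 to 1.55 CPM. *Sox10*, at 0 in Control and 0.0699 CPM in KD-1, was not tested. Of 8 caudal epiblast and neuromesodermal markers 2 rose and 3 fell (59.4 to 67.0 and 61.2 to 64.4 CPM), and of 5 endoderm markers tested 2 rose and 2 fell (145 to 174 and 305 to 311 CPM). *Trh* made up most of the endoderm sums (130 CPM in Control and 265 in KD-1), while *Cer1* fell from 14.6 to 0.046 CPM, *Foxa1* fell from 0.808 to 0.129 CPM, and *Sox17* (0.207 and 0.00384 CPM) and *Foxa2* (0.048 and 0.121 CPM) were too low to test. Cardiac markers (5.02 to 6.43 and 0.620 to 0.919 CPM, with *Nkx2-5* and *Hand1* at 3 counts or fewer in every library) fell for both tested, and 3 of 4 feeder fibroblast markers fell (8.34 to 9.17 and 0.817 to 1.03 CPM). The part of a changed cell make-up in the guidance gene values was not tested.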

How the data were processed

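Bulk RNA-seq of 3 Control and 3 KD-1 gastruloid samples (TruSeq libraries, NextSeq) was quantified by the authors with Salmon (version 1.1, per the submitters' processing notes) on Gencode transcripts, whose species series and build are not given in the sources used here. The authors deposited estimated counts (expected counts) per Ensembl gene as whole numbers without normalization. Neither the step from transcripts to genes nor the use of strand is stated, and Salmon divides reads between similar or overlapping sequences. The deposited column suffixes do not match the sample numbers, so columns were assigned to groups and libraries named by depth.

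Names, positions and union exon lengths came from GENCODE vM39 (GRCm39), which named 35222 of 35565 identifiers, 21467 of them protein-coding. Promoter windows came from RefSeq. The test used filterByExpr, TMM and edgeR (version 4.0.16 in R 4.3.3), that is glmQLFit and glmQLFTest with robust estimation, group as the only term, Benjamini-Hochberg adjustment over 15110 genes, and a biological coefficient of variation of 10.6%. Every adjusted p in the text is from this test unless said otherwise. Standard errors are the log2 fold change over the root of F. Intervals and limits from counts cover counting error only. Replicate libraries differed beyond sampling noise (chi-square tests over genes).

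All 70 members are named. Values per library are given for up to 5 of the largest rises and falls per class among called genes and for the member with the highest level per kb, and also for *Epha2*, *Ephb2*, *Neo1* and 3 of the untested genes, which were added after their values were seen. The members and lists were chosen with earlier results of these data known. Alternatives were DESeq2 (version 1.42.0), limma-voom (limma version 3.58.1), other normalizations, count filters, fold thresholds and libraries left out. The scripts were tested on simulated counts.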

Additional observations from a re-analysis of the deposited data

How the results depend on the processing

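The log2 fold changes of 41 guidance genes were recomputed under alternatives other than the fold threshold, giving 569 pairs of gene and setting. The 41 are the 37 called genes and the uncalled members with the highest level per kb in their class. Of the 569 pairs, 561 kept direction and side of the threshold, 8 kept direction without passing it and 0 reversed. Pairs whose gene a filter removed are not counted. *Epha8*, *Robo3*, *Ntn5*, *Plxna4* and *Sema4a* drop out when at least 10 counts are required in every library. With that filter, 11 guidance genes were called higher. The 8 were *Epha8* without the shallowest KD-1 library (adjusted p = 0.05 by edgeR), *Plxna4* without each KD-1 library, *Plxnc1* (0.56) and *Sema6d* (0.51) without the middle Control library, and *Sema3b* without the middle or the deepest KD-1 library. Leaving out a library gave 13 to 15 guidance genes called higher and 22 to 25 called lower, and DESeq2 gave 15 and 23. Calls moved chiefly with the fold threshold. A test against a 1.5-fold change (glmTreat) called 3763 of all genes, 8 guidance genes higher and 9 semaphorins. An absolute log2 fold change over 1 called 3274 genes, 8 guidance genes higher, 8 semaphorins and 18 pathway genes outside the symbol rule. With no fold threshold there were 9597 genes, 11 Eph receptors, 3 ephrins and 10 plexins and neuropilins. Outside the 41 genes, *Epha2* gained a call under 10 alternatives, and *Epha10*, *Unc5a*, *Unc5d* and *Sema4f* each under at least 1. No paired analysis was possible because the columns do not carry the replicate numbers of the labels. Depth limits *Epha8*, *Sema4a*, *Ntn5*, *Plxna4* and the Control levels of *Robo3*, and the 4 untested members most of all.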
